A study of Homo sapiens with 6 samples.

Results

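A set of 10 genes that make, sense, take up or break down prostaglandin E2 was followed across 3 lung cancer cell lines: PLA2G4A, PTGS1, PTGS2, PTGES, PTGES2, PTGES3, PTGER2, PTGER4, SLCO2A1 and HPGD. The list was drawn up by symbol with earlier results of these data known, and all 10 had a named probe set among the 17687 genes measured. The samples were PC-9 and HCC827, non-small cell lung cancer lines with a mutated epidermal growth factor receptor (EGFR), and H322, whose EGFR is wild type. PC-9 and HCC827 had each been given 0.01 µM erlotinib, an inhibitor of the EGFR kinase, for 6 hours, and each had a control. H322 had been given EGF, the ligand of that receptor, for 6 hours at a concentration the labels write as 100 µg/ml, and also had a control. Each of these 6 conditions was measured on 1 Clarion S array, an Affymetrix array with oligonucleotide probe sets for known genes, so erlotinib has 2 lines as replicates and EGF has none. The growth protocol names tumour necrosis factor alpha in the medium without saying whether the control cultures had it, and if the controls lacked it, its effect and that of the treatment cannot be told apart. Nothing in the labels says that cultures were repeated, and each line stands for itself, not for its EGFR genotype.

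Prostaglandins are short-lived lipid signals. Cytosolic phospholipase A2 releases arachidonic acid from membranes, the cyclooxygenases turn it into prostaglandin H2, and terminal synthases turn that into prostaglandin E2. Among the receptors of prostaglandin E2, EP2 and EP4 raise cyclic AMP. A carrier brings the prostaglandin back into the cell and a dehydrogenase inactivates it there, and in epithelial tumours the inducible cyclooxygenase and this dehydrogenase are known as opposing arms of the pathway.

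Signals are probe set intensities, and differences are given on the log2 scale after adding 1. A signal counts as above background when it exceeds the 95th percentile of the same array's 612 negative controls, an intensity between 120.4 and 176.2. The arrays had medians between 148 and 157. By the markers listed for this work all lines were epithelial: 6 of 6 epithelial markers lay above background on every array, with summed intensities from 305213 to 399329. Of 6 measured leukocyte markers between 0 and 2 lay above background, with sums from 242 to 13136. CD68 made up most of the higher sums, while PTPRC, which defines leukocytes, was not above background on any array. Of 7 fibroblast and endothelial markers between 0 and 2 lay above background, with sums from 468 to 690. In PC-9 and HCC827 both marker groups other than epithelial had the same number above background with erlotinib as in control, apart from the fibroblast and endothelial markers in HCC827, with 2 with erlotinib and 1 in control, and their part in the results was not tested. As a check of the treatments, 4 genes known as outputs of the ERK kinases below EGFR were listed. With erlotinib FOSL1, DUSP6 and EGR1 fell (limma adjusted p = 9.2e-05, 0.00861 and 0.0326, n = 2 lines), and SPRY4, with -2.28 on the log2 scale, did not pass (limma adjusted p = 0.0664). EGR1 lay below background on both PC-9 arrays, and DUSP6 and SPRY4 did so in PC-9 with erlotinib. In PC-9 DUSP6 was thus at least 9.57-fold lower. SPRY4 was only just above background in control PC-9, so that at least 1.02-fold lower is shown there. FOSL1, with the smallest p of all genes, had 219 with erlotinib against 7460 in control PC-9 and 355 with erlotinib against 12823 in control HCC827. With EGF in H322 FOSL1 was 4.59-fold, DUSP6 1.70-fold and SPRY4 1.24-fold higher, while EGR1 was 1.16-fold lower.

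Of the 10 genes, 1 passed the test of erlotinib against control in the EGFR-mutant lines and 9 did not. PTGS2, which encodes the inducible cyclooxygenase COX-2, fell in both lines. The test was limma across all 17687 genes with cell line as a block, of which 1.48% passed a Benjamini-Hochberg adjusted p of 0.05, 0.916% lower and 0.565% higher with erlotinib. The median difference was -0.19 over the 10 genes and 0.00 over all genes. Of the 10 genes 4 had an unadjusted p under 0.05, PTGS2, PTGER4, PTGES and SLCO2A1, next to 14.4% of all genes, and of these PTGER4 was not above background on any of the 4 arrays and SLCO2A1 lay above it on 1. Of the 10 genes 7 lay above background on at least 1 of the 4 arrays, next to 56.6% of all genes, and 4 on all 6 arrays, next to 41.9%. In bulk RNA fewer expressing cells and less RNA per cell cannot be told apart.

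**Figure D1:**
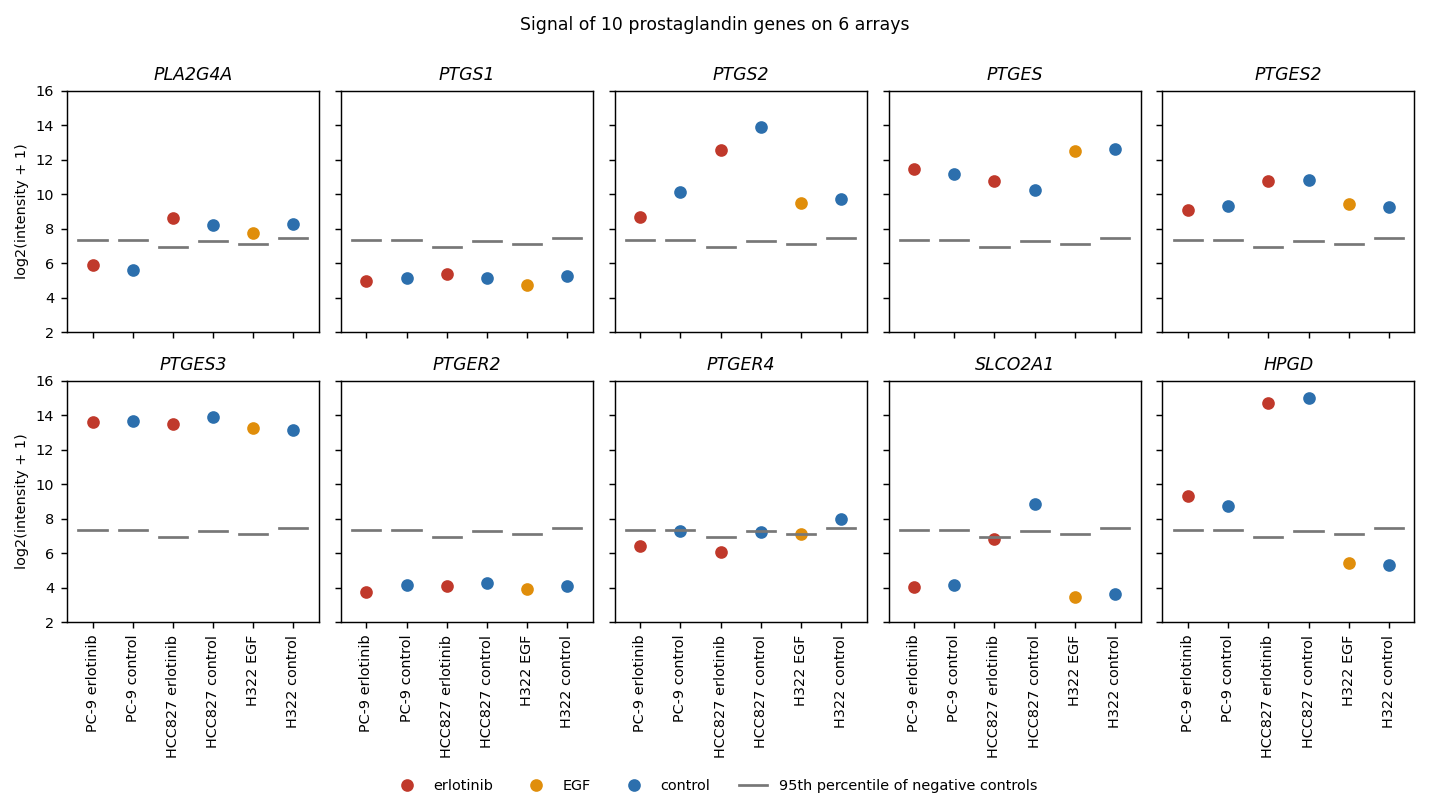
Signals of the 10 genes, as log2 of intensity plus 1, on each of the 6 arrays, with treated arrays left of their controls. Grey bars mark the 95th percentile of the negative controls of the array. PTGS2, PTGES, PTGES2 and PTGES3 lie above the bars on all 6 arrays, PTGS1 and PTGER2 on none, and SLCO2A1 on the HCC827 control only.

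The pathway starts with PLA2G4A, the cytosolic phospholipase A2 that releases arachidonic acid. Its intensity was 57.8 in PC-9 with erlotinib and 46.9 in control PC-9, both not above background. It was 399 in HCC827 with erlotinib, against 298 in control HCC827, and 217 in H322 with EGF, against 306 in control H322. PLA2G4A was therefore measurable in HCC827 and H322 but not in PC-9. Erlotinib minus control was 0.36 ± 0.26 on the log2 scale (limma moderated SE, n = 2 lines), with a 95% interval from -0.26 to 0.97, and did not pass (limma adjusted p = 0.617). In HCC827 it was 1.34-fold higher with erlotinib and in H322 1.41-fold lower with EGF, each from 1 pair of arrays.

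PTGS1 encodes the constitutive cyclooxygenase COX-1. Its intensities lay between 26.0 and 39.9 on the 6 arrays, above 67.6% to 83.2% of the negative controls and never above their 95th percentile. No fold is given for it, and its fitted difference of 0.05 ± 0.26 (limma adjusted p = 0.963, n = 2 lines) describes signals at the level of the background.

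PTGS2 was above background on every array. In PC-9 it had an intensity of 410 with erlotinib, against 1108 in control. In HCC827 it had 6145 with erlotinib, against 15267 in control. Both lines were lower by a like amount, by 2.70-fold (PC-9) and 2.48-fold (HCC827), although the control levels of the lines were far apart. The mean difference was -1.37 ± 0.17 on the log2 scale, a 2.59-fold decrease, with a 95% interval from -1.76 to -0.98 (limma adjusted p = 0.0175, n = 2 lines). Lower in 2 of 2 lines, PTGS2 ranked 48 of 17687 genes by p. The call needs the model of the spread on the level and the block: the adjusted p was 0.131 in limma when 1 common spread was assumed for all levels, and 1.0 without the replicate block, where the unadjusted p was 0.523.

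With EGF in H322 PTGS2 did not move the other way. It had 708 with EGF, against 836 in control, a difference of -0.24 on the log2 scale, or 1.18-fold lower. That is about as large as the SD of the EGF differences over all genes above background on both H322 arrays, 0.25. Of the ERK output genes on those same arrays, 3 were higher with EGF and EGR1 was lower by an amount like that of PTGS2.

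**Figure D2:**
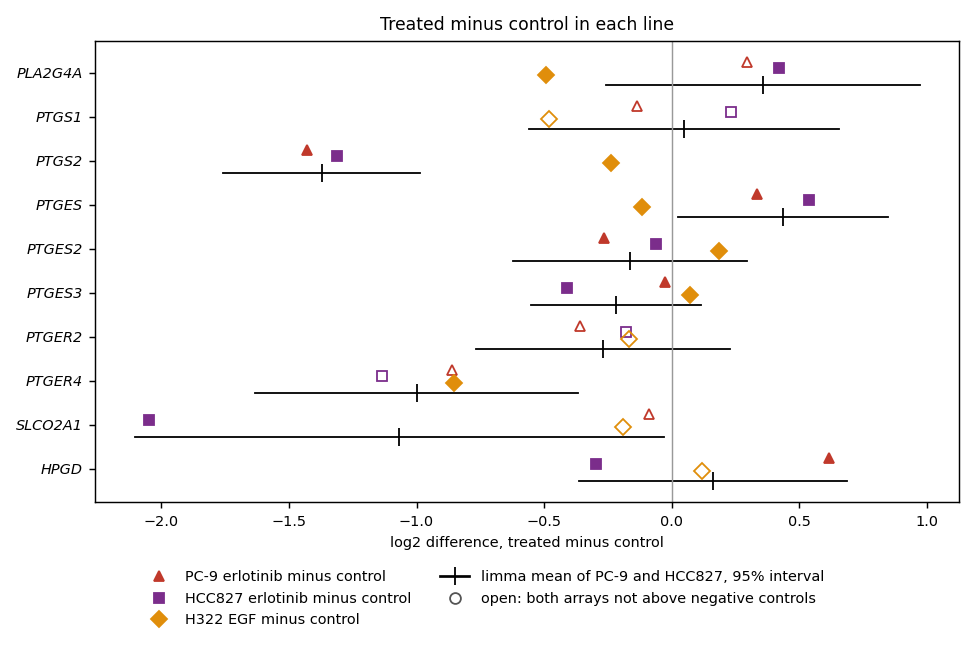
Log2 difference, treated minus control, of the 10 genes in PC-9 (triangles), HCC827 (squares) and H322 (diamonds), with the limma mean of PC-9 and HCC827 and its 95% interval in black. Open symbols mark pairs with both arrays not above background. The PTGS2 interval runs from -1.76 to -0.98, and SLCO2A1 stands apart in HCC827 at -2.05, against -0.09 in PC-9.

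PTGS2 lay among the genes that fell in both lines. Of 17687 genes, 132 in PC-9 and 172 in HCC827 had a larger log2 decrease. These were counted by signals as measured, dim ones included, among genes whose higher signal reached the median probe set. Counted in the same way, 314 genes (1.78%) in PC-9 and 340 (1.92%) in HCC827 were at least 2-fold lower. The genes with the most similar pattern were sought among the 8021 genes above background on at least 1 array of each line, by Euclidean distance over the 3 treated minus control differences. The 5 nearest were MACIR at 0.23, SOX9 at 0.29, MLKL at 0.35, ELOVL6 at 0.37 and CDC42EP1 at 0.37. MACIR had -1.36 in PC-9, -1.13 in HCC827 and -0.36 in H322, and SOX9 had -1.25, -1.35 and -0.46, next to -1.43, -1.31 and -0.24 for PTGS2.

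**Figure D3:**
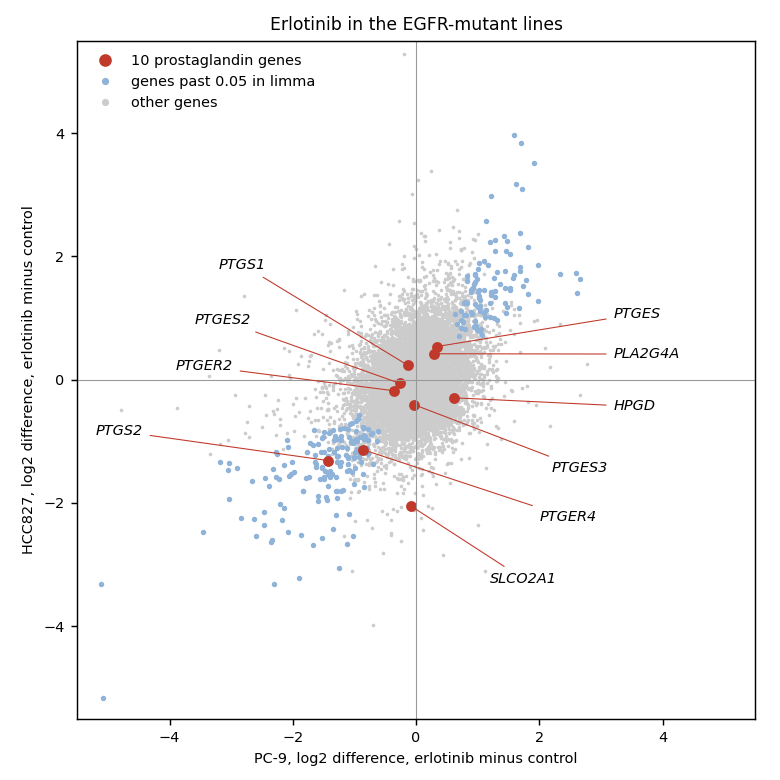
Log2 difference, erlotinib minus control, in PC-9 (x axis) and HCC827 (y axis) for 17687 genes (grey), with the 262 genes past the limma threshold in blue and the 10 prostaglandin genes in red. PTGS2 lies with the blue points at -1.43 and -1.31, PTGER4 near them at -0.86 and -1.14, and the 9 red points other than PTGS2 are not among the genes that passed.

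The promoters of PTGS2, which passed, and PTGER4, which had the next smallest p of the 10 but did not pass and lay at background on all 4 arrays, are shown here with the letters that matched a short motif in capitals. Both stretches run from 250 bases before the transcription start to the base before it, 5′ to 3′ on the strand of the gene, in the GRCh38.p14 build of RefSeq. PTGS2 is on the minus strand at chr1:186680424-186680673 and PTGER4 on the plus strand at chr5:40679665-40679914.
PTGS2: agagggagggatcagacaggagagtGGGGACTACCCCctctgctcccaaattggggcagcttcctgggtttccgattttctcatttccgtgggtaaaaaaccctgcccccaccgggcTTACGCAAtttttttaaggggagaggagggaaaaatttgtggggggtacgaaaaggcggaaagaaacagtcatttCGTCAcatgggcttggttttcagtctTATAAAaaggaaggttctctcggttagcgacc
PTGER4: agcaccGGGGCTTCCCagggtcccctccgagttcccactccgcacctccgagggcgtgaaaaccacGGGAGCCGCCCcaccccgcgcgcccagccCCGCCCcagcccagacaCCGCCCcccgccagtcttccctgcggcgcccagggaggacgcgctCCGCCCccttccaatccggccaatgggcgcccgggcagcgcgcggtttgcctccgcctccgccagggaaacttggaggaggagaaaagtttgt
Positions are counted from the start, with -1 the base before it. In PTGS2 the first capitals, from -225 to -214, hold 4 overlapping matches, on both strands, to a loose NF-kappaB motif (a G triplet, 5 free bases and a C pair). The next are a C/EBP motif TTNNGNAA from -133 to -126, which matches on both strands, a CRE core CGTCA from -58 to -54 and a TATA box TATAAA from -32 to -27. In PTGER4 the capitals hold 4 matches to the NF-kappaB motif at 2 places and 4 to the GC box GGGCGG, 1 of which overlaps the second place.

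Most of these letters are common in promoters. Among 35116 RefSeq promoters of 300 bases, of which 50 follow the start, the NF-kappaB letters occurred in 58.7%, the GC box in 45%, the C/EBP letters in 36.8%, the CRE core in 24.6% and the TATA box in 11.5%, counting both strands. The 9 members with an entry in the RefSeq table had 13 promoters. Of these 10 held the NF-kappaB letters, 10 the GC box, 4 the CRE core, 3 the C/EBP letters, 2 the E box CACGTG (7.26% of all) and 2 the TATA box. The AP-1 letters TGACTCA (4.95% of all) were in 0 of the 13 windows. PTGS2 was 1 of the 2 with a TATA box, and its second CRE core lay after the start, from 25 to 29. A match describes letters only, and binding was not measured.

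**Figure D4:**
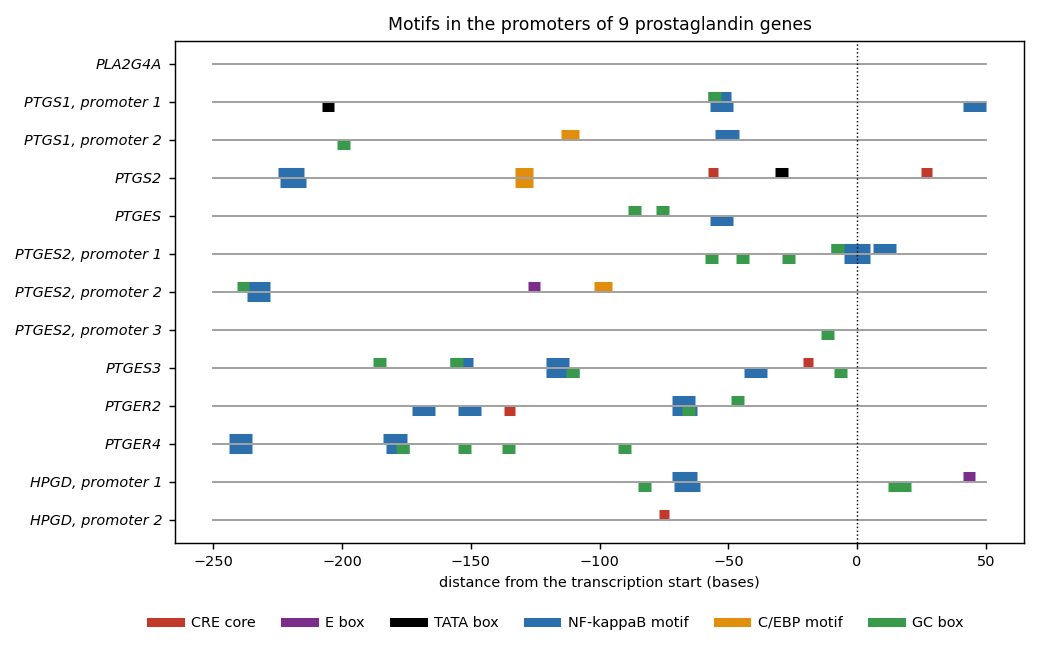
Motif matches in 13 promoters of 9 of the genes, by distance in bases from the transcription start, with the gene's strand above each line and the opposite strand below it. In PTGS2 the NF-kappaB, C/EBP, CRE and TATA matches follow each other toward the start, and the PLA2G4A window holds none.

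The terminal synthases were expressed in all lines and none of the 3 passed the test. PTGES encodes the microsomal, inducible prostaglandin E synthase. It had 2848 with erlotinib in PC-9, against 2260 in control, and 1770 with erlotinib in HCC827, against 1220 in control. It was thus 1.26-fold and 1.45-fold higher with erlotinib where PTGS2 was lower. The mean difference was 0.44 ± 0.18 (95% interval 0.02 to 0.85, limma adjusted p = 0.324, unadjusted p = 0.041, n = 2 lines). In H322 PTGES had 5892 with EGF, against 6387 in control, 1.08-fold lower.

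PTGES2, a membrane-associated synthase, had 534 with erlotinib, against 642 in control PC-9, and 1743 with erlotinib, against 1817 in control HCC827. In H322 it had 683 with EGF, against 601 in control. PTGES3, the cytosolic synthase that is also the p23 co-chaperone of HSP90, had 12492 with erlotinib, against 12728 in control PC-9, and 11288 with erlotinib, against 14984 in control HCC827. In H322 it had 9609 with EGF, against 9144 in control. Both genes differed by at most 1.33-fold in any line, with erlotinib differences of -0.16 ± 0.20 for PTGES2 (95% interval -0.62 to 0.30) and -0.22 ± 0.14 for PTGES3 (95% interval -0.55 to 0.11, limma adjusted p = 0.798 and 0.564, n = 2 lines).

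The 2 receptors were at or near background. PTGER2, which encodes the EP2 receptor, lay between 12.7 and 18.1 on the 6 arrays, above only 41.8% to 56.4% of the negative control probe sets. PTGER4 encodes EP4, the other receptor that raises cyclic AMP. It had 84.9 with erlotinib, against 155 in control PC-9, and 66.2 with erlotinib, against 147 in control HCC827. In H322 it had 138 with EGF, against 250 in control. The control of H322 was the 1 array of 6 above background, and EGF was at least 1.79-fold lower there.

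PTGER4 was lower on the treated array of each line, by 0.86 in PC-9, 1.14 in HCC827 and 0.86 in H322 on the log2 scale. The erlotinib difference of -0.999 ± 0.27 (95% interval -1.63 to -0.37) did not pass (limma adjusted p = 0.143, n = 2 lines). With the smallest of these as the cutoff, which PTGER4 meets by construction, 2 of the 17687 genes were lower by at least 0.86 in all 3 lines. So were 5 of the 612 negative control probe sets. Within 1 log2 unit of the mean level of PTGER4 the counts were 1 of 2695 genes, PTGER4 itself, and 2 of 47 negative control probe sets. When dim signals were set to the 95th percentile of the negatives, the PTGER4 difference was -0.17, equal to the median of all genes under that setting. PTGER4 exceeded that percentile on no PC-9 or HCC827 array, so the setting fixed this value in advance. It therefore says nothing about PTGER4.

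SLCO2A1 and HPGD take up and inactivate prostaglandins, and both had their highest signals in HCC827. SLCO2A1, the prostaglandin transporter, had 112 in HCC827 with erlotinib, against 465 in control HCC827. The control was the 1 array of 6 above background, so erlotinib was at least 3.84-fold lower in HCC827. In PC-9 it had 15.7 with erlotinib, against 16.8 in control, and in H322 9.95 with EGF, against 11.5 in control, all at background. The mean over both EGFR-mutant lines was -1.07 ± 0.45 (95% interval -2.11 to -0.03) and did not pass (limma adjusted p = 0.335). It averages a line with the transcript and a line where it was not detected, and the difference between the lines was not tested.

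HPGD, the NAD-dependent dehydrogenase that inactivates prostaglandin E2, had 640 with erlotinib, against 417 in control PC-9. In HCC827 it had 26443 with erlotinib, against 32440 in control. In H322 it had 41.4 with EGF, against 38.0 in control, both not above background. HPGD with erlotinib was 1.53-fold higher in PC-9, while in HCC827 it was 1.23-fold lower, and the mean of 0.16 ± 0.23 (95% interval -0.36 to 0.69) did not pass (limma adjusted p = 0.832, n = 2 lines). PTGS2 thus had a lower signal with erlotinib in both lines while HPGD had 1 line in each direction.

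In single lines, at least 2-fold differences with the higher signal reaching the median probe set (7.28 on the log2 scale) were counted against those of all genes. With erlotinib 1 of the 10 genes was lower in PC-9 (PTGS2), next to 1.78% of all genes, and 2 were lower in HCC827 (PTGS2 and SLCO2A1), next to 1.92% of all genes. None was higher, next to 0.927% of all genes in PC-9 and 2.57% in HCC827. With EGF in H322 0 of the 10 genes differed 2-fold, next to 0.0848% of all genes lower and 0.102% higher. These single-line counts have no replicate and no test.

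The larger contrasts were between the lines before treatment. By signals as measured 5 of the 10 genes were at least 2-fold lower in control PC-9 than in control HCC827, PTGS2, HPGD, SLCO2A1, PLA2G4A and PTGES2, next to 10.4% of all genes, and 0 were higher, next to 12.1%. With dim signals raised to the percentile of the negative controls 4 were, without PLA2G4A, next to 9.06% of all genes. In control H322 4 were lower than in control HCC827, PTGS2, HPGD, SLCO2A1 and PTGES2, next to 10.1% of all genes, and 1, PTGES, was higher, next to 12.4%. Between control H322 and control PC-9 the counts were nearer to those of all genes: HPGD, at least 2.36-fold, was the 1 lower in H322, next to 11.5% of all genes, and 2 were higher as measured, next to 12.4%. These were PTGES, 2.83-fold, and PLA2G4A, for which at least 1.90-fold is shown, so that 1 was higher with dim signals raised, next to 10.9%. Each line has 1 control array, so these differences have no test.

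Of the 10 genes HPGD set the lines furthest apart. It had 38.0 in control H322 and 417 in control PC-9, against 32440 in control HCC827, at least 183-fold lower in H322 and 77.6-fold lower in PC-9. PTGS2 had 836 in control H322 and 1108 in control PC-9, against 15267 in control HCC827, 18.2-fold and 13.8-fold lower. SLCO2A1 was at least 2.63-fold lower in H322 and at least 2.87-fold lower in PC-9 than in HCC827. HCC827 thus had the highest control signal of the inducible cyclooxygenase, the transporter and the dehydrogenase together.

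PTGES followed another order. It had 6387 in control H322 and 2260 in control PC-9, against 1220 in control HCC827, 5.23-fold and 1.85-fold higher. PTGES2 was 3.02-fold lower in control H322 and 2.83-fold lower in control PC-9 than in control HCC827, and PTGES3, with 1.64-fold and 1.18-fold lower signals, varied least among the synthases. PLA2G4A differed by 1.03-fold between control H322 and control HCC827, and was at least 1.84-fold lower in control PC-9 than in HCC827. Between the lines with low PTGS2, control H322 was 1.32-fold lower than control PC-9. The 6145 of PTGS2 in HCC827 with erlotinib still lay above both controls of the other lines, while the 410 in PC-9 with erlotinib lay below both H322 arrays.

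PTGS2 and PLA2G4A are next to each other among the protein-coding genes of chromosome 1 in the RefSeq table. In HCC827, where both were above background, PTGS2 was 2.48-fold lower with erlotinib and PLA2G4A 1.34-fold higher.

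A further 31 genes of prostanoid synthesis, breakdown, transport and reception were listed from textbook knowledge, and 29 were measured. None rose and none fell with erlotinib past the limma threshold, next to 1.48% of all genes, and 3 of the 29 had an unadjusted p under 0.05, next to 14.4% of all genes. Their median difference was 0.03, against 0.00 over all genes. The 3 were CBR1, AKR1C3 and MGLL. CBR1, above background on all 6 arrays, had 1083 with erlotinib, against 1805 in control PC-9. In HCC827 it had 1151 with erlotinib, against 1944 in control. It was thus 1.67-fold (PC-9) and 1.69-fold (HCC827) lower with erlotinib. Its mean of -0.75 ± 0.18 did not pass (limma adjusted p = 0.107, unadjusted p = 0.00387, n = 2 lines). In H322 CBR1 had 5353 with EGF, against 6074 in control. Of the 29 genes 9 lay above background on all 6 arrays, next to 41.9% of all genes, and 14 on none, next to 41.4%. Of the other 7 prostanoid receptor genes 6 were not above background on any array (PTGER1, PTGER3, PTGDR, PTGDR2, PTGFR and TBXA2R). PTGIR, the prostacyclin receptor, lay between 143 and 195, above background on 3 arrays. By contrast all 4 genes of breakdown and export (PTGR1, PTGR2, PTGR3 and the exporter ABCC4) lay above background on all 6 arrays.

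**Figure D5:**
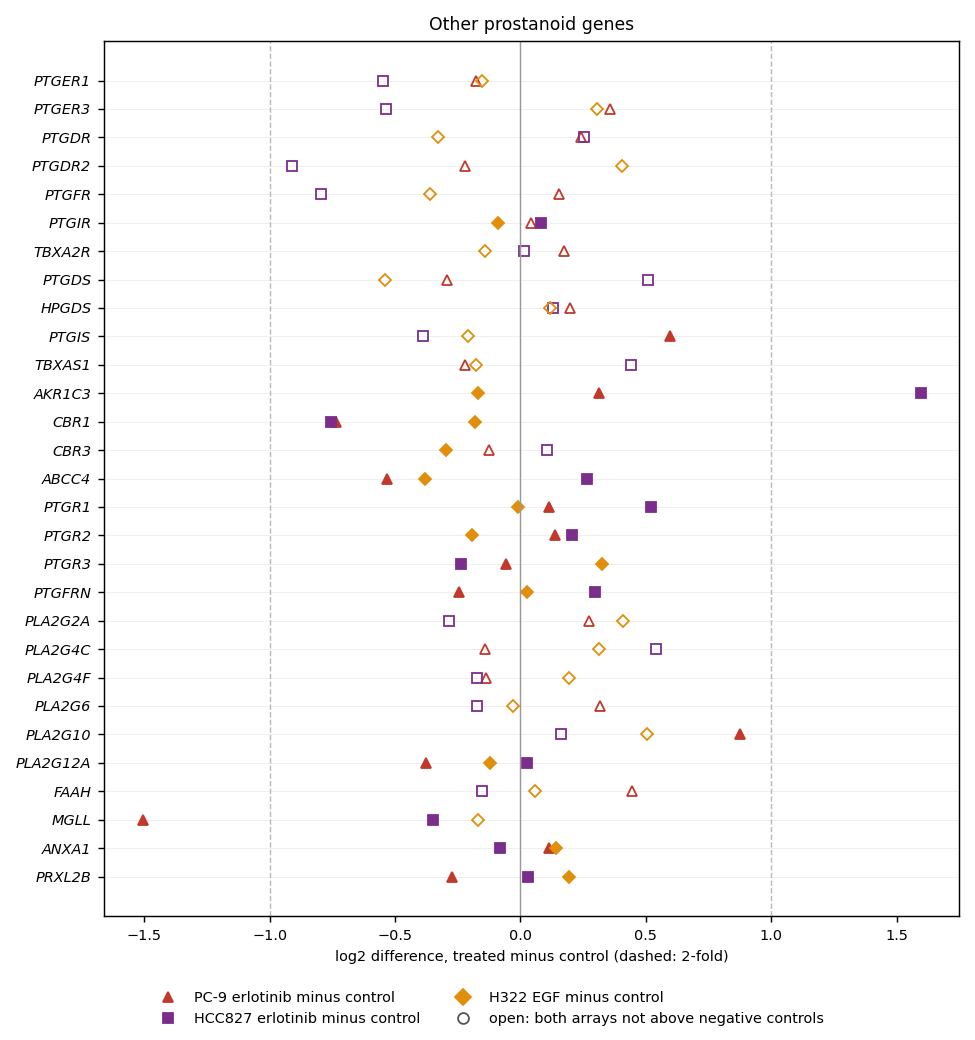
Log2 difference, treated minus control, of 29 other prostanoid genes in PC-9 (triangles), HCC827 (squares) and H322 (diamonds), with open symbols where both arrays were not above background. AKR1C3 in HCC827 at 1.60 and MGLL in PC-9 at -1.51 are the 2 points beyond the dashed 2-fold lines.

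AKR1C3 and MGLL were the 2 that differed at least 2-fold in a line. AKR1C3 encodes an aldo-keto reductase that makes prostaglandin F2 alpha. It had 2838 with erlotinib, against 939 in control HCC827, 3.02-fold higher, and 82968 with erlotinib, against 66702 in control PC-9, 1.24-fold higher. In H322 it had 47433 with EGF, against 53351 in control. Its sequence is close to those of other AKR1C genes, so its signal is uncertain. The mean of 0.96 ± 0.27 did not pass (limma adjusted p = 0.15, n = 2 lines).

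MGLL encodes the monoacylglycerol lipase that frees arachidonic acid from an endocannabinoid. It had 916 with erlotinib, against 2603 in control PC-9, 2.84-fold lower, and 8581 with erlotinib, against 10919 in control HCC827, 1.27-fold lower. In H322 it had 35.4 with EGF and 39.9 in control, both not above background. The mean of -0.93 ± 0.26 did not pass (limma adjusted p = 0.154, n = 2 lines). At baseline MGLL followed PTGS2 and HPGD, at least 61.6-fold lower in control H322 and 4.19-fold lower in control PC-9 than in control HCC827. AKR1C3 ran the other way, 56.8-fold higher in control H322 and 71.0-fold higher in control PC-9 than in control HCC827. So did the breakdown gene PTGR1, 7.73-fold higher in control H322 and 62.95-fold higher in control PC-9. The other PTGR genes did not follow it. PTGR3 was 1.89-fold lower in control H322 and 1.27-fold lower in control PC-9 than in control HCC827. PTGR2 was 1.77-fold higher in control H322 and 2.03-fold lower in control PC-9. Baseline differences of the remaining listed genes are not described here.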

How the data were processed

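RNA of the 3 lines was labelled with biotin as cRNA and measured on Clarion S arrays, as the labels' protocols state. The deposited intensity values are linear probe set signals, which the authors obtained with Affymetrix Expression Console according to the submitters' processing notes. Not given in the sources used here are its version, background correction and scaling. The medians were near-equal, as scaling of the arrays would make them, but whether they were scaled was not stated. Scaling would hide a shift shared by most genes.

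Values were taken as log2(intensity + 1), while the design had allowed for log2 values. Of 24351 probe sets 17709 had 1 gene symbol and 6642 none, and the brightest per symbol was kept (17687 genes). The 10 genes, the further lists and the tests were chosen with earlier results of these data known. Erlotinib was tested with limma 3.58.1 in R 4.3.3 (lmFit, eBayes with a trend), two-sided, on 4 arrays with cell line as block and Benjamini-Hochberg adjustment at 0.05. The pairing comes from the cell line, and deviations from group means correlated at 0.93. There is 1 residual degree of freedom, with 6.58 borrowed from other genes, so p-values rest mostly on their spread. A gene below background on 1 array of a pair has a bound only ("at least"), with that array set to the percentile. The number of arrays limits precision.

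Alternatives were an offset of 16, no trend, no replicate block, quantile normalization, median centring, a filter on dim genes, a floor at the negative controls, the mean of all probe sets and leaving out each line. Named genes were the 10, other prostanoid genes past the threshold or 2-fold in a line, the 5 nearest PTGS2, and 4 ERK output genes. CBR1 was added for its unadjusted p, and PTGR1, PTGR2 and PTGR3 are described at baseline outside this rule. On simulated data with 17687 genes this erlotinib test called 30.6% of the 2-fold changes and 96.2% of the 4-fold changes, and 9.43% of calls were false. The simulation drew its spread from the fitted limma model and gave each changed gene the same change in both lines. Its rates therefore hold only where these assumptions do, and are not the error rates of the measured data.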

Additional observations from a re-analysis of the deposited data

Results flagged for a closer look

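HPGD moved in opposite directions in the EGFR-mutant lines with all 4 arrays above background. Erlotinib minus control was -0.29 in HCC827 and 0.62 in PC-9 on the log2 scale, so that HCC827 minus PC-9 was -0.91. The difference was not tested, since each line has 1 pair of arrays.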

How the results depend on the processing

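PTGS2 kept its direction in all 8 alternative fits, between -1.40 and -1.35, and passed the threshold in 6. These 6 include the floor at the negative controls, whose p-values are not reliable. They also include the mean of all probe sets, which left the values of PTGS2 unchanged. Only the offset, quantile normalization and median centring changed its difference. The other fits left it at -1.37, so there its direction could not change. Assuming 1 common spread for all levels it had -1.37 (limma adjusted p = 0.131), and with no replicate block -1.37 (limma adjusted p = 1.0); in both fits 0 of the 10 genes passed. Left out in turn, the lines gave -1.43 to -1.31. With a floor at the negative controls 2 of the 10 genes passed. SLCO2A1 then had -0.96 (limma adjusted p = 0.0277), where the median of all genes was -0.17. PTGS1 turned from 0.05 to -0.17, that same median, which the floor gives to any gene dim on all 4 arrays. These identical values enter the spread shared by all genes, and FOSL1 reached limma adjusted p = 1.86e-124 from 4 arrays. P-values and counts of genes passing with the floor are therefore not reliable. The 262 genes past the threshold became 166 with an offset of 16, 1 without a trend, 0 without the replicate block (186 at an unadjusted p under 0.05), 806 after quantile normalization, 535 with arrays centred on their medians, 96 among genes above background on at least 1 of 4 arrays and 1115 with the floor. Of the ERK output genes, run through the same fits as an addition after seeing the data, FOSL1 passed in 7 of 8, DUSP6 in 6, EGR1 in 4 and SPRY4 in 2. For FOSL1, DUSP6 and EGR1 these counts include the fit with the floor. AKR1C3 and MGLL passed after quantile normalization (limma adjusted p = 0.0149 and 0.023). They also passed with the floor (limma adjusted p = 2.2e-08 and 2.18e-05), where their differences were unchanged and the SE of AKR1C3 fell from 0.265 to 0.149. Of 77 values of the 10 genes from the alternative fits 73 kept direction and side of the threshold. In the fits without a trend, without the block and with the filter, the direction could not change. Of the 20 values from 1 line alone, which have no test, 2 had the opposite sign to the mean of both lines, HPGD with -0.29 in HCC827 and PTGS1 with -0.14 in PC-9, and SLCO2A1 had -2.05 in HCC827 and -0.09 in PC-9. With dim signals raised, PLA2G4A left both baseline counts that held it and no other member did. For EGF 49 of 50 alternative values moved by less than 0.25, the exception being HPGD at -0.34 with the floor, where both arrays are dim. The causes were not tested. Signal over background limits PTGS1, PTGER2 and PTGER4 on nearly all arrays, SLCO2A1 outside control HCC827, HPGD in H322 and PLA2G4A in PC-9.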
